A study of Homo sapiens with 6 samples.

Results

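The genes described here fold newly made proteins in the endoplasmic reticulum (ER), carry proteins into it, or remove those that fail to fold. They were chosen by name, 38 in all, and all 38 were found among the 19421 genes of the table that share one scale. The mean over all 6 samples reached 1 FPKM (fragments or reads scaled to gene length and to the sample's assigned reads) for 37 of them, so 37 of the 11599 genes tested are members. The RNA came from A431 cells, an established human line from a squamous carcinoma with many EGFR gene copies, grown in DMEM with fetal bovine serum. The 3 shARID1A samples expressed an shRNA against ARID1A, the DNA-binding subunit of the BAF chromatin remodelling complex, and the 3 shCONTROL samples a control shRNA. Neither the number of different shRNAs nor whether the samples were separate cultures is given in the sources used here, so p-values speak only of sample-to-sample spread and part of that may be technical.

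In the ER, the chaperone BiP (HSPA5) and its helpers hold unfolded chains, lectin chaperones hold glycosylated ones, and disulfide isomerases form and shuffle cysteine bonds. Chains that stay misfolded are pulled back to the cytosol and degraded, a route called ER-associated degradation. When unfolded proteins build up, the membrane sensors ATF6, IRE1 (ERN1) and PERK (EIF2AK3) start the unfolded protein response. Cleaved ATF6 and the transcription factor XBP1 then raise chaperone and degradation genes, while PERK slows translation and favours the transcription factor ATF4. Secretory cells and many carcinomas depend on this system.

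Many of these genes are known to be switched on through the ER stress response element (ERSE), the letters CCAAT and CCACG with 9 bases between them, or through ERSE-II, ATTGG and CCACG with 1 base between them. Both strands of the RefSeq promoter windows (GRCh38.p14, 250 bases before to 50 after each start site) were searched for exact matches. Windows were given for 34 members, and 7 of these 34 held an ERSE (CALR, CANX, CRELD2, HSP90B1, HSPA5, PDIA6 and XBP1), which is 20.6%, against 25 of all 27305 genes with a window, or 0.0916%. An ERSE-II stood in the windows of HERPUD1, HYOU1 and SDF2L1, 3 members, against 19 of all genes. The XBP1 site TGACGTGG was found for 3 members (DNAJC10, HYOU1 and SSR3), where in HYOU1 it overlaps an ERSE-II, and for 0.927% of all genes. No member window held the CEBP-ATF composite TGATGNAAT, which 1.22% of all genes held. These matches describe the letters and were not tested as binding sites. As many members are known for the ERSE or ERSE-II, their larger share than over all genes could be foreseen. The stretches below carry the ERSE or ERSE-II of some of these members, read 5′ to 3′ along the gene, with the outer letters of each element in capitals. Those of CALR, CANX and HYOU1, which hold such elements too, are not shown.
HSPA5: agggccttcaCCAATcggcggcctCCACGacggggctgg
HSP90B1: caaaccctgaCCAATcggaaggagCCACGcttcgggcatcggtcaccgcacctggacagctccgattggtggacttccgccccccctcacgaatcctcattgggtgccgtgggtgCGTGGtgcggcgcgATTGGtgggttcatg
CRELD2: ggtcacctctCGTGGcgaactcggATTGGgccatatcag
PDIA6: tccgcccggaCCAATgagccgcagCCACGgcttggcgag
XBP1: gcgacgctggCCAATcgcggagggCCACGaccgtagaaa
HERPUD1: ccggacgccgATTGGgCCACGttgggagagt
SDF2L1: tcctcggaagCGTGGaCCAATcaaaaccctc
In GRCh38.p14 they lie upstream of a RefSeq start site at chr9:125241381-125241419 on the minus strand for HSPA5, chr12:103930206-103930349 on the plus strand for HSP90B1, chr22:49918544-49918582 on the plus strand for CRELD2 and chr2:10812843-10812881 on the minus strand for PDIA6. Those of XBP1, HERPUD1 and SDF2L1 lie at chr22:28800593-28800631 on the minus strand, chr16:56932015-56932045 on the plus strand and chr22:21642104-21642134 on the plus strand. The HSP90B1 stretch holds 2 ERSE copies, one on each strand, and in CRELD2 and SDF2L1 the element reads on the opposite strand. The element of HSPA5 runs from -66 to -48 relative to the start site and that of XBP1 from -52 to -34.

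The knockdown was seen in every sample. ARID1A itself stood at 6.70, 7.62 and 7.31 FPKM with the ARID1A shRNA, against 22.8, 22.8 and 23.8 FPKM with the control shRNA, with an exact permutation p of 0.1 (two-sided), which is as low as 3 samples against 3 can reach. Assigned reads per sample, recovered from the FPKM steps, ranged from 32561039 to 36453744 in shARID1A and from 31658040 to 34647924 in shCONTROL. At least 243 reads lay behind each value of a tested member. Of 8 squamous epithelial markers, 7 were above 1 FPKM in some sample and KRT14 was not; their summed level was 1409 to 2034 FPKM in shARID1A, with replicate 3 lowest, and 1785 to 2068 FPKM in shCONTROL. Among them TP63 and KRT5 were lower in shARID1A (log2 fold changes -0.46 and -0.65, limma adjusted p = 0.0106 and 0.0351), and SFN lay at -0.50 (0.0695, and 0.0299 with the replicate block). The list went both ways. EGFR, KRT17 and EPCAM had positive fold changes of 0.22, 0.11 and 0.01 (limma adjusted p = 0.155, 0.742 and 0.969), and CDH1 lay at -0.16 (0.256). Without shARID1A replicate 3, EGFR and KRT17 passed as higher and SFN as lower. The TP63 and KRT5 calls ended without shARID1A replicate 1 and without shCONTROL replicate 2, and TP63's also without shCONTROL replicate 1. KRT5's call also ended without shARID1A replicate 2, with limma voom on the recovered reads and with no filter on low values. Over all settings the adjusted p of TP63 and KRT5 reached at most 0.0667 and 0.104. Of 10 markers of other cell types, 8 stayed under 1 FPKM in every sample, and the list summed to 11.5 to 18.2 FPKM in shARID1A and to 14.9 to 18.3 FPKM in shCONTROL. Whether these marker levels have a part in the results below was not tested.

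Over the 37 tested members, 1 passed as higher and 1 as lower in shARID1A samples (limma on log2(FPKM + 1), Benjamini-Hochberg adjusted p below 0.05 over all genes tested), namely CRELD2 and HERPUD1. Of all genes tested 16.8% passed, 5.85% higher and 10.9% lower (679 and 1265 genes, and 947 and 831 after quantile normalization), against 5.41% of the tested members, and the difference between these shares was not tested. With the replicate number as a block, 7 members were higher and 2 lower, against 8.12% and 15.5% of all genes tested. With limma voom on the recovered reads 6 were higher and 1 lower, against 9.04% and 8.37%. Pairing by replicate number was taken from these same data, not from the labels. On simulated data, limma on log2(FPKM + 1) made more false calls than the nominal share, more so with the block, whereas voom did not. The simulation gave every gene the same extra spread and had no effect shared by same-numbered samples. It therefore cannot say how the block does on paired data. The median log2 fold change was -0.07 over the members and -0.08 over all genes tested, and 17 members lay above and 20 below 0. The 95% interval of the fold change stayed within 1.5-fold in either direction for 27 of the 37. Since the RNA comes from bulk cultures, a change in all cells and a change in some of them cannot be told apart.

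**Figure D1:**
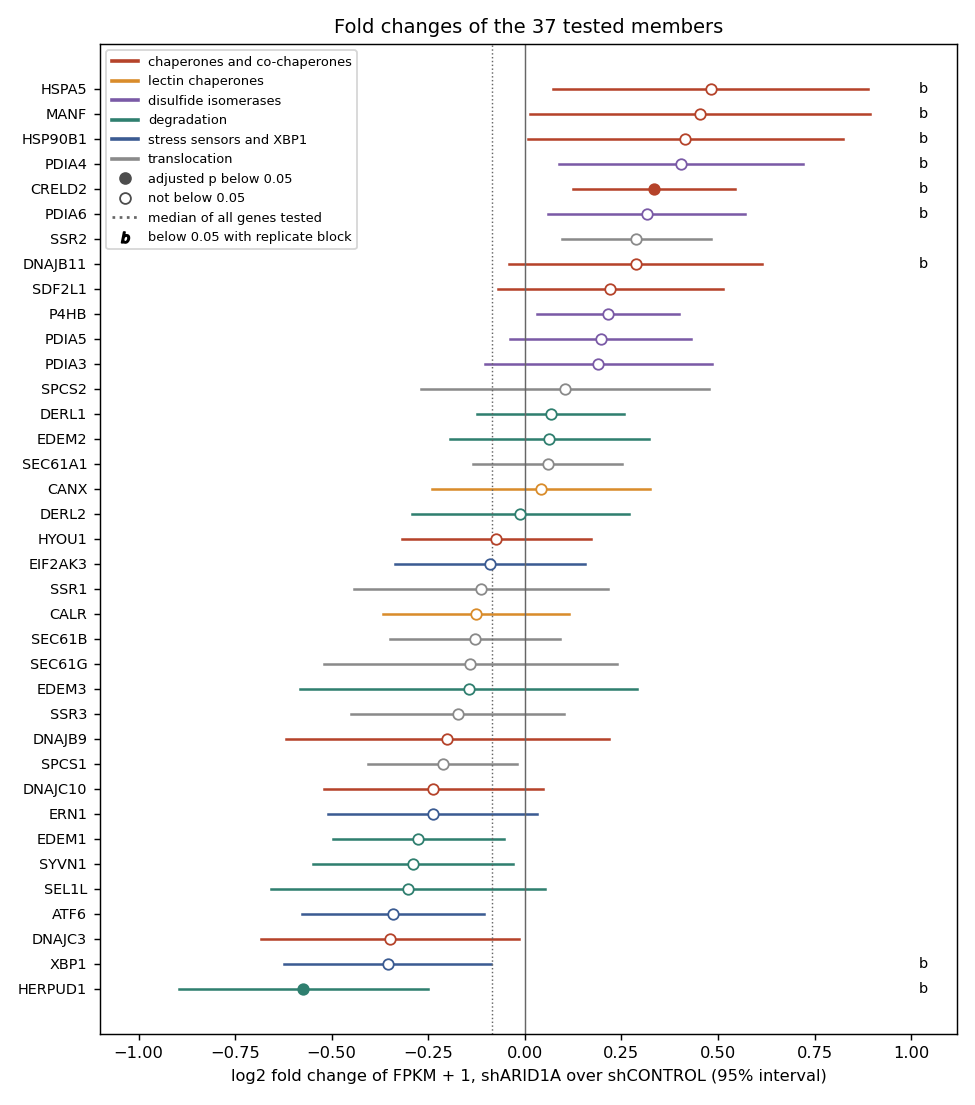
Log2 fold changes of FPKM + 1 (shARID1A over shCONTROL) of the 37 tested members with 95% intervals from limma, coloured by role; filled points have an adjusted p below 0.05, the letter b marks an adjusted p below 0.05 with the replicate block, and the dotted line is the median of all genes tested (-0.08). CRELD2 and HERPUD1 are the filled points, and chaperones and disulfide isomerases make up most of the upper end.

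With the replicate block the 7 higher members were the luminal chaperones and cofactors HSPA5, HSP90B1, DNAJB11, CRELD2 and MANF and the disulfide isomerases PDIA4 and PDIA6, and the 2 lower ones were HERPUD1 and XBP1. Of these, HSP90B1, DNAJB11 and PDIA6 missed the threshold when quantile normalization was added to the block (limma adjusted p = 0.0751, 0.0676 and 0.0572), a setting in which 11.3% of all genes tested were higher and 10.3% lower. In all 3 same-numbered sample pairs 13 members were higher with the ARID1A shRNA, against 20.7% of all genes tested, and 12 were lower, against 37.1%. The 3 values per group did not overlap for 6 members on the higher side (HSPA5, CRELD2, P4HB, PDIA4, PDIA6 and SSR2; 13.4% of all genes tested) and 7 on the lower side (HERPUD1, SYVN1, EDEM1, XBP1, ATF6, ERN1 and SPCS1; 25.4%). Replicate 3 was the highest sample in both groups for 16 of the 37 members, or 43.2%, and for 21.7% of all genes tested. All 7 members called higher with the block, CRELD2 included, were among these 16.

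**Figure D2:**
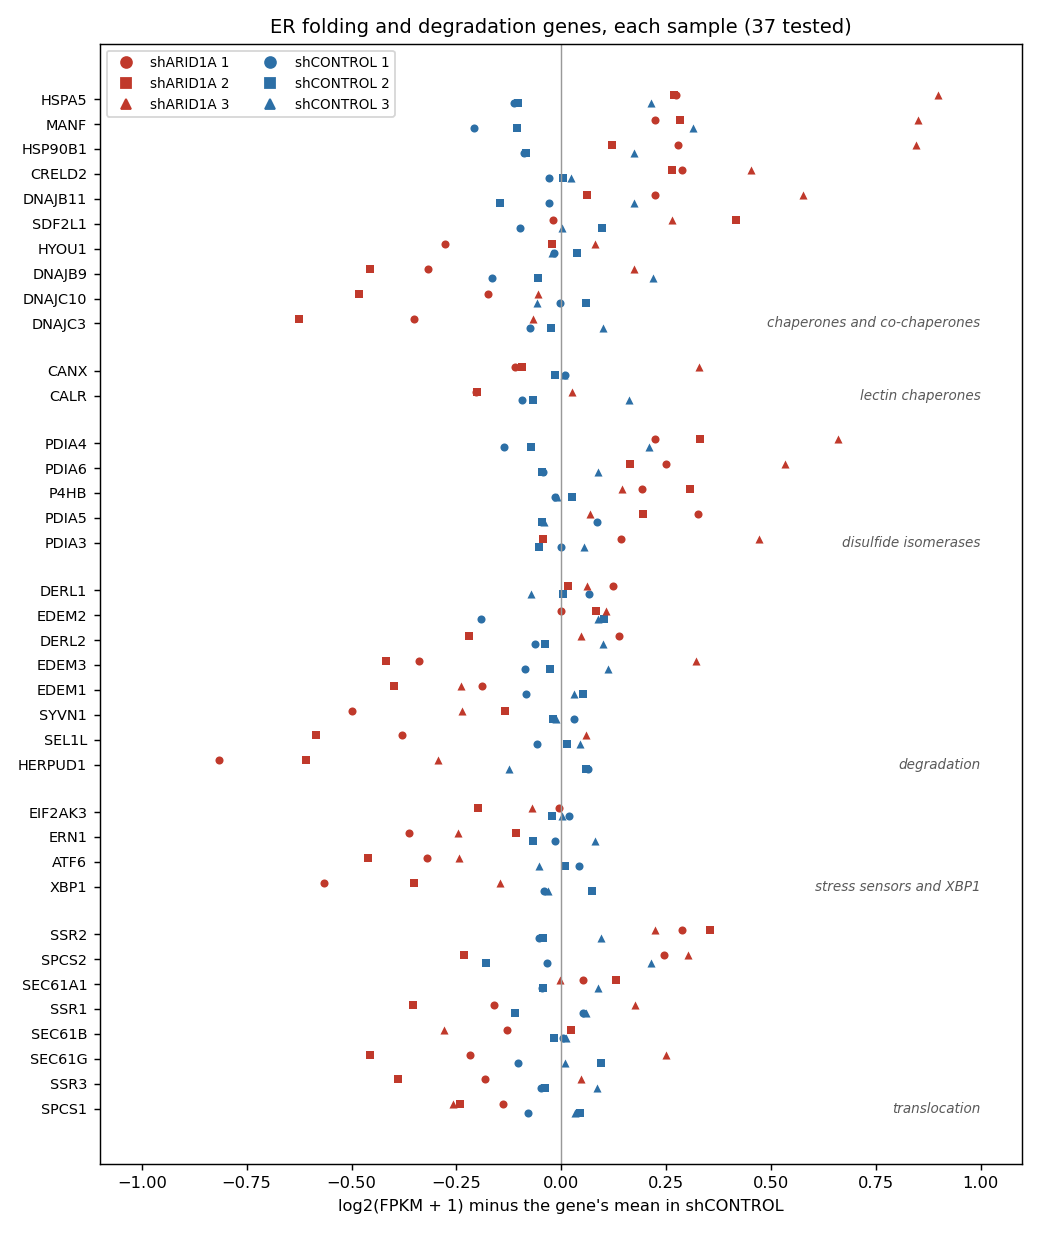
Each sample's log2(FPKM + 1) minus the gene's shCONTROL mean for the 37 tested members, grouped by role and ordered by fold change; red symbols are shARID1A, blue symbols shCONTROL, and the symbol shape gives the replicate number. Red triangles (shARID1A replicate 3) lie farthest right for HSPA5, MANF, HSP90B1 and PDIA4, while all red symbols of HERPUD1, XBP1 and ATF6 lie left of the blue ones.

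Among roles of unlike size, chaperones and cofactors had the largest summed FPKM, followed by the disulfide isomerases. The 10 chaperones and cofactors summed to 920, 876 and 1323 FPKM in shARID1A, against 751, 754 and 895 FPKM in shCONTROL. Pair by pair these sums were 22.5%, 16.3% and 47.9% higher in shARID1A. Within the role 6 members had positive and 4 negative fold changes. CRELD2 was the 1 that rose, a share of 10% beside the 5.85% of all genes tested that were higher.

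CRELD2 (gene ID 79174), an ER protein induced by stress, stood at 25.8, 25.3 and 29.0 FPKM in shARID1A, against 20.5, 21.0 and 21.3 FPKM in shCONTROL. The groups did not overlap, and the shCONTROL values lay close together. It rose by 27.6% in mean FPKM, or 0.33 ± 0.092 (SE) on the log2 scale, with a limma adjusted p of 0.0416. The call ended without shARID1A replicate 1 (adjusted p = 0.110), without shCONTROL replicate 1, 2 or 3 (0.154, 0.161 and 0.0783) and on a scale with equal FPKM sums (0.0532).

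HSPA5 (gene ID 3309), the chaperone BiP that also holds the stress sensors inactive, stood at 232, 232 and 359 FPKM in shARID1A, against 177, 179 and 223 FPKM in shCONTROL. Replicate 3 was the highest sample of each group, and every shARID1A value lay above every shCONTROL value. On the log2 scale the difference was 0.48 ± 0.18 (SE), with a limma adjusted p of 0.0988. It passed with the replicate block (adjusted p = 0.0128) and with voom (0.0415), and without shARID1A replicate 3 the fold change was 0.27 (0.0958).

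HSP90B1 (gene ID 7184), the ER form of HSP90, was the most abundant member, at 381, 342 and 566 FPKM in shARID1A and 295, 296 and 355 FPKM in shCONTROL. The groups overlapped, since shCONTROL replicate 3 lay above shARID1A replicate 2, while each shARID1A sample exceeded its same-numbered control. Its log2 fold change was 0.42 ± 0.18 (SE), with an adjusted p of 0.141 in limma and of 0.0305 with the replicate block. Without shARID1A replicate 3 it was 0.20 (adjusted p = 0.173).

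MANF (gene ID 7873), a stress-induced protein that binds BiP and can be secreted, stood at 47.2, 49.2 and 73.4 FPKM in shARID1A, against 34.7, 37.3 and 50.3 FPKM in shCONTROL (log2 fold change 0.45, limma adjusted p = 0.137, and 0.0105 with the replicate block). DNAJB11 (gene ID 51726), a J-domain partner of BiP that binds unfolded chains, stood at 143, 128 and 183 FPKM in shARID1A, against 120, 111 and 138 FPKM in shCONTROL (log2 fold change 0.29, limma adjusted p = 0.196, and 0.0475 with the replicate block). Both were higher in shARID1A in each same-numbered pair, but their groups overlapped. Without shARID1A replicate 3 the fold changes were 0.25 for MANF and 0.14 for DNAJB11 (adjusted p = 0.221 and 0.345).

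The other chaperones did not pass. SDF2L1, a partner of DNAJB11, averaged 21.3 ± 3.3 FPKM in shARID1A and 18.0 ± 1.3 FPKM in shCONTROL (SD, n = 3 each; limma adjusted p = 0.258). HYOU1, which exchanges nucleotide on BiP, averaged 50.5 ± 6.4 and 52.9 ± 1.2 FPKM in shARID1A and shCONTROL (adjusted p = 0.667), and its fold change changed sign with voom. The J-domain proteins DNAJB9, DNAJC3 and DNAJC10 had negative fold changes of -0.20, -0.35 and -0.24 (adjusted p = 0.475, 0.133 and 0.217). DNAJC3, which in its cytosolic form restrains PERK, was lower in each pair, at 10.3 ± 2.2 FPKM in shARID1A and 13.3 ± 0.89 FPKM in shCONTROL, and it passed without shARID1A replicate 3.

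The lectin chaperones, which hold glycoproteins in the ER until they are folded, showed no called change with all 6 samples. Calnexin (CANX) stood at 294, 298 and 400 FPKM in shARID1A, against 320, 315 and 319 FPKM in shCONTROL, so that replicate 3 alone lay above the controls. Its log2 fold change of 0.04 became -0.10 without shARID1A replicate 3. Calreticulin (CALR) averaged 289 ± 27 FPKM in shARID1A and 316 ± 31 FPKM in shCONTROL, with a 95% interval of the log2 fold change from -0.37 to 0.11.

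Disulfide isomerases all had positive fold changes, from 0.19 to 0.40, and kept that sign in every setting tried. None of the 5 passed in limma on FPKM with all 6 samples and no block. With voom on the recovered reads P4HB, PDIA4 and PDIA6 passed as higher, while PDIA3 and PDIA5 did not. The 5 summed to 835, 831 and 955 FPKM in shARID1A, against 717, 719 and 759 FPKM in shCONTROL. That is 16.5%, 15.7% and 25.7% higher by pair.

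PDIA4 (gene ID 9601), an isomerase with several thioredoxin-like domains, stood at 121, 130 and 164 FPKM in shARID1A, against 93.7, 98.1 and 119 FPKM in shCONTROL. The groups did not overlap, with shCONTROL replicate 3 close to shARID1A replicate 1. Its log2 fold change was 0.40 ± 0.14 (SE), with an adjusted p of 0.0789 in limma, 0.0132 with the replicate block and 0.0325 with voom.

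PDIA6 (gene ID 10130), a BiP-associated isomerase that also attenuates the ERN1 and EIF2AK3 sensors, stood at 104, 97.8 and 127 FPKM in shARID1A, against 84.7, 84.5 and 92.9 FPKM in shCONTROL (log2 fold change 0.32, limma adjusted p = 0.0875). The groups did not overlap. It passed with the replicate block (adjusted p = 0.0391) and with voom (0.0286).

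P4HB (gene ID 5034), the classical protein disulfide isomerase and a subunit of collagen prolyl hydroxylase, stood at 326, 353 and 315 FPKM in shARID1A, against 282, 290 and 283 FPKM in shCONTROL. Here replicate 3 was the lowest shARID1A sample, and the groups did not overlap (log2 fold change 0.21, limma adjusted p = 0.101). It passed with voom (adjusted p = 0.0468) and without shARID1A replicate 3 (0.0391), but not with the block. PDIA3, the partner of the lectin chaperones, and PDIA5 had fold changes of 0.19 and 0.20 with adjusted p of 0.332 and 0.216.

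**Figure D3:**
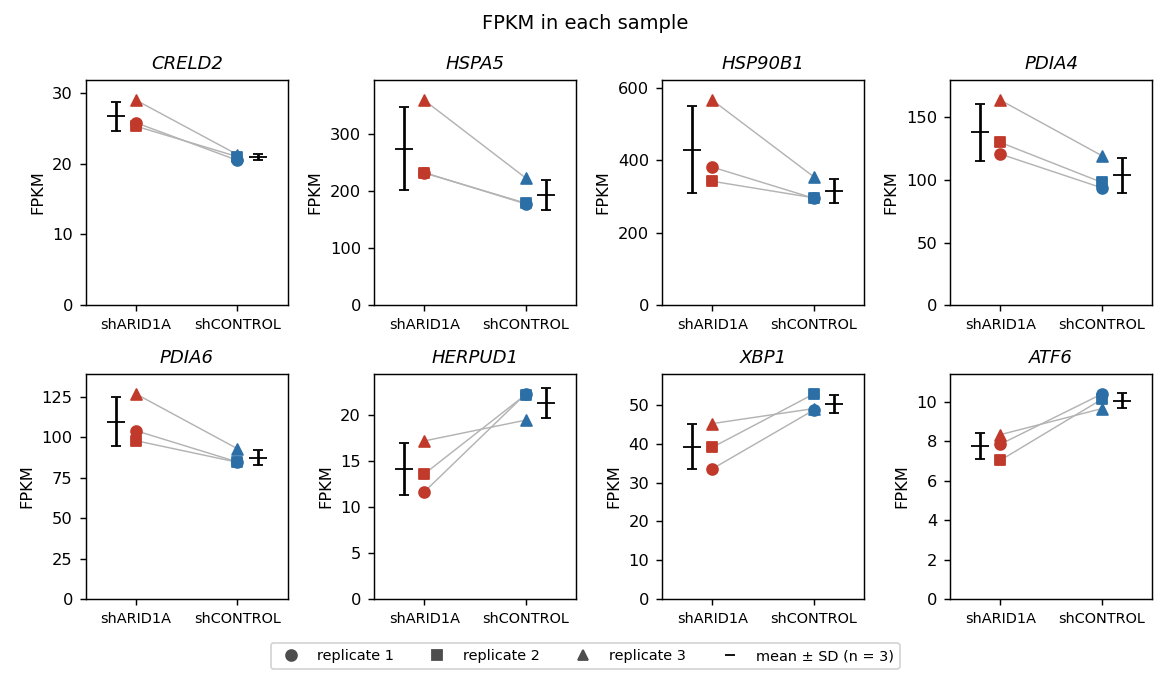
FPKM (linear axis from 0) of 8 members in each sample, shARID1A at left and shCONTROL at right; symbol shapes give the replicate number, grey lines join same-numbered samples, and bars are mean ± SD (n = 3). Lines of CRELD2, HSPA5, HSP90B1, PDIA4 and PDIA6 all descend to the right, and those of HERPUD1, XBP1 and ATF6 all climb.

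Of the 8 tested degradation genes HERPUD1 was the 1 that fell, a share of 12.5% beside the 10.9% of all genes tested that were lower. HERPUD1 (gene ID 9709), a membrane protein that helps assemble the SYVN1 ligase complex, stood at 11.6, 13.6 and 17.2 FPKM in shARID1A, against 22.3, 22.2 and 19.4 FPKM in shCONTROL. The groups did not overlap, and in shARID1A replicate 3 and shCONTROL replicate 3 the values were closest. It fell by 33.6% in mean FPKM, or -0.57 ± 0.14 (SE) on the log2 scale, with a limma adjusted p of 0.0291. In this fit no other tested member differed by more, whereas in some other settings HSPA5 and further chaperones did. With voom and without shARID1A replicate 1, for example, HSPA5 had 0.57 and 0.58, against -0.52 and -0.45 for HERPUD1. The call ended without shARID1A replicate 1 or 2 (adjusted p = 0.102 and 0.0625), without shCONTROL replicate 1 or 2 (0.107 and 0.118) and with no filter on low values (0.0630). It stayed with the replicate block, quantile normalization and voom.

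The remaining degradation genes did not pass with all 6 samples. SYVN1 (HRD1), the ubiquitin ligase of the pathway, averaged 15.1 ± 2.0 FPKM in shARID1A and 18.6 ± 0.36 FPKM in shCONTROL, with no overlap (log2 fold change -0.29, limma adjusted p = 0.115). SEL1L, its adaptor, averaged 24.2 ± 5.9 FPKM in shARID1A and 29.5 ± 1.1 FPKM in shCONTROL (log2 fold change -0.30, adjusted p = 0.209). EDEM1, which trims mannose from misfolded glycoproteins, averaged 21.9 ± 1.7 FPKM in shARID1A and 26.7 ± 1.4 FPKM in shCONTROL, again with no overlap (log2 fold change -0.28, adjusted p = 0.0858). Its relatives EDEM2 and EDEM3 had fold changes of 0.06 and -0.15, and the derlins DERL1 and DERL2, which form part of the exit channel, 0.07 and -0.01, with adjusted p of at least 0.609. SEL1L and EDEM3 passed without shARID1A replicate 3. DERL3, a derlin of secretory tissues, was listed at 0.0171, 0 and 0 FPKM in shARID1A and at 0.0395, 0.00905 and 0.0180 FPKM in shCONTROL, too low for a comparison.

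All 4 genes of the stress sensors and XBP1 had negative fold changes, which for EIF2AK3 turned positive after quantile normalization. With all 6 samples and no block, none of the 4 passed. XBP1 (gene ID 7494), the transcription factor whose RNA is spliced by ERN1, stood at 33.6, 39.1 and 45.2 FPKM in shARID1A, against 48.7, 52.8 and 49.1 FPKM in shCONTROL. The groups did not overlap (log2 fold change -0.36, standard error 0.12, limma adjusted p = 0.0710), and it passed with the replicate block (0.0449) and without shARID1A replicate 3 (0.0113) but not with voom (0.144). Gene-level values do not separate spliced from unspliced XBP1 RNA.

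ATF6 (gene ID 22926), the sensor that is cleaved to a transcription factor, stood at 7.84, 7.03 and 8.33 FPKM in shARID1A, against 10.4, 10.1 and 9.65 FPKM in shCONTROL (log2 fold change -0.34, limma adjusted p = 0.0549). It missed the threshold with the replicate block as well (adjusted p = 0.0517) and passed without shARID1A replicate 3 (0.0213). ERN1 (gene ID 2081), the IRE1 kinase and endonuclease, was low, at 2.10, 2.70 and 2.36 FPKM in shARID1A, against 2.94, 2.80 and 3.21 FPKM in shCONTROL (log2 fold change -0.24, adjusted p = 0.193). For both sensors the groups did not overlap. EIF2AK3 (gene ID 9451), the kinase PERK, stood at 3.60, 3.03 and 3.40 FPKM in shARID1A, against 3.68, 3.55 and 3.63 FPKM in shCONTROL, with a 95% interval of the log2 fold change from -0.34 to 0.15.

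Translocation genes carry new chains into the ER and cleave their signal peptides. They showed no called change in limma on log2(FPKM + 1) with all 6 samples and FPKM as deposited. Their sums were 592, 586 and 606 FPKM in shARID1A, against 569, 584 and 616 FPKM in shCONTROL. SSR2 (gene ID 6746), a subunit of the translocon-associated protein complex, stood at 160, 168 and 153 FPKM in shARID1A, against 126, 127 and 140 FPKM in shCONTROL. Its groups did not overlap, and it lay at the threshold (log2 fold change 0.29, limma adjusted p = 0.0506), passing with voom (0.0295) and with equal FPKM sums (0.0433). The other subunits SSR1 and SSR3 had fold changes of -0.11 and -0.17 (adjusted p = 0.618 and 0.343). Of the signal peptidase subunits, SPCS1 averaged 67.3 ± 3.1 FPKM in shARID1A and 78.1 ± 3.7 FPKM in shCONTROL with no overlap (log2 fold change -0.21, adjusted p = 0.117), and SPCS2 had a fold change of 0.10. The channel subunits SEC61A1, SEC61B and SEC61G had fold changes of 0.06, -0.13 and -0.14, with adjusted p of at least 0.377, although SEC61G passed on the lower side without shARID1A replicate 3.

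As FPKM are per length, levels can be set side by side. The 8 most abundant members, HSP90B1, CANX, P4HB, CALR, PDIA3, HSPA5, SSR2 and DNAJB11, made up 66.1%, 65.7% and 68.2% of the members' summed FPKM in shARID1A and 63.7%, 62.9% and 64.4% in shCONTROL. All 38 together made up 0.824%, 0.799% and 1.05% of all FPKM in shARID1A, against 0.767%, 0.779% and 0.848% in shCONTROL. These shares were higher in shARID1A within each pair, yet the groups overlapped. The sensors were at the low end, with ERN1 last among the tested members and EIF2AK3 next to last.

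Of the members whose promoter windows hold an ERSE, CRELD2 rose, HSPA5, HSP90B1 and PDIA6 had positive fold changes and passed with the block, CANX and CALR lay at 0.04 and -0.13, and XBP1 had a negative fold change. Of those with an ERSE-II, HERPUD1 fell, while SDF2L1 and HYOU1 lay at 0.22 and -0.07. Members with the same element had fold changes of both signs.

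Libraries numbered 3 weighed on these counts. Without shARID1A replicate 3, 3 members were higher (CRELD2, P4HB and SSR2) and 7 lower (DNAJC3, HERPUD1, SEL1L, EDEM3, XBP1, ATF6 and SEC61G), against 9.62% and 19.7% of all genes tested. Without replicate 3 of both groups, an alternative added after the data were seen, 7 were higher (HSPA5, HSP90B1, CRELD2, MANF, PDIA4, PDIA6 and SSR2) and 6 lower (DNAJC3, HERPUD1, SEL1L, EDEM3, XBP1 and ATF6), against 10.5% and 22.0%. In that setting HSPA5 had a log2 fold change of 0.38 (limma, adjusted p = 0.00983) and HERPUD1 one of -0.77 (0.00264). No member passed in either direction without shARID1A replicate 1, where 2.35% of all genes tested were higher and 4.43% lower. The same held without shCONTROL replicate 1, against 2.18% and 4.27% of all genes tested, and without shCONTROL replicate 2, against 1.99% and 3.07%. Without shARID1A replicate 2 only CRELD2 passed (5.41% of all genes tested higher, 8.95% lower), and without shCONTROL replicate 3 only HERPUD1 (4.31% higher, 7.83% lower).

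The neighbouring gene lists can be read against the 16.8% of all genes tested that passed. Of the other folding factors 6.67% passed, of the other degradation factors 13.0% and of the other translocation and N-glycosylation factors 14.8%. Of 30 other folding factors 1 rose, the sulfhydryl oxidase QSOX1 (54.2 ± 8.8 FPKM in shARID1A and 36.0 ± 5.0 FPKM in shCONTROL), and 1 fell, the J-domain protein DNAJB14 (3.19 ± 1.1 and 5.40 ± 0.23 FPKM in shARID1A and shCONTROL); the next by p was SDF2 (log2 fold change -0.29, limma adjusted p = 0.0573). Of 23 other degradation factors tested, 1 rose and 2 fell, while the fit with the replicate block had 1 higher and 6 lower. The paralogs ERLIN1 and ERLIN2, which form one complex in the ER membrane, went opposite ways: ERLIN1 averaged 23.9 ± 1.2 FPKM in shARID1A and 16.4 ± 0.98 FPKM in shCONTROL, and ERLIN2 averaged 11.6 ± 0.83 FPKM in shARID1A and 15.0 ± 0.76 FPKM in shCONTROL. RNF139, a ubiquitin ligase, fell by 0.48 on the log2 scale. Of 27 other translocation and N-glycosylation factors, 3 rose, the oligosaccharyltransferase subunits RPN1 and RPN2 and the translocation-associated TRAM2 (log2 fold changes 0.29, 0.30 and 0.43), and 1 fell, the signal recognition particle subunit SRP54 (-0.38).

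In the ER export and retrieval list 0 of 19 genes passed in limma on log2(FPKM + 1) with or without the block. At an unadjusted limma p below 0.05, 1 was higher and 1 lower, against 1327 and 2602 of the 11599 genes tested. The smallest p-values belonged to SEC31A, KDELR2 and SEC13 (log2 fold changes -0.20, 0.19 and 0.20), of which KDELR2 passed with voom. Of 12 other regulators of the stress sensors, CREB3L4 fell (2.34 ± 0.32 FPKM in shARID1A and 4.32 ± 0.51 FPKM in shCONTROL), and the sensor paralog ATF6B and the protease MBTPS1, which cleaves ATF6, followed by p (adjusted p = 0.0636 and 0.144). The calls for QSOX1, DNAJB14, ERLIN1, ERLIN2, RNF139, RPN1, RPN2, TRAM2, SRP54 and CREB3L4 each ended without shCONTROL replicate 2. Over all settings their highest limma adjusted p ranged from 0.0640 for CREB3L4 to 0.218 for RPN2. With 1 sample left out, ERLIN1 and CREB3L4 passed in 4 fits each, and QSOX1, RNF139 and TRAM2 in 2. DNAJB14, ERLIN2, RPN1, RPN2 and SRP54 passed in 1 such fit each. Among the alternatives on all 6 samples, ERLIN1 passed in 9 of 9. ERLIN2 passed in 4 of 9, and not with voom or quantile normalization.

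The ATF4 arm is the branch of stress signalling that PERK shares with other kinases. Of its 17 tested genes 12 fell and 0 rose, with a median log2 fold change of -1.05. That is a share of 70.6%, beside the 10.9% of all genes tested that were lower. The list was chosen with earlier results of these data known. With no filter on low values 10 of its genes were lower, and some of the 12 calls ended when 1 sample was left out. ASNS, asparagine synthetase, averaged 21.9 ± 0.94 FPKM in shARID1A and 83.1 ± 6.8 FPKM in shCONTROL, while ATF4 itself averaged 203 ± 11 and 259 ± 39 FPKM in shARID1A and shCONTROL (limma, adjusted p = 0.0850, and 0.0346 with the replicate block). DDIT4 and ATF3 had log2 fold changes of -1.58 and -1.75.

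**Figure D4:**
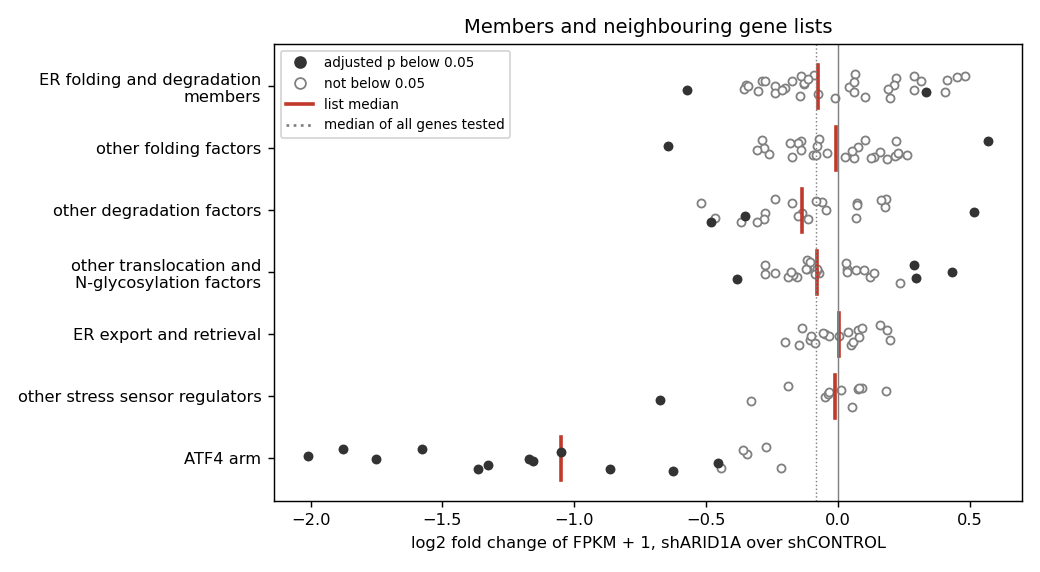
Log2 fold changes of FPKM + 1 (shARID1A over shCONTROL) of every tested gene in the member list and 6 neighbouring lists; filled points have a limma adjusted p below 0.05, red bars are list medians and the dotted line is the median of all genes tested. The ATF4 arm lies apart with a median of -1.05, and the other medians lie between -0.14 and 0.01.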

How the data were processed

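RNA-seq of 6 A431 samples was used, 3 with an ARID1A shRNA and 3 with a control shRNA. HISAT2 2.0.5 and featureCounts 1.5.0-p1 are listed per the submitters' processing notes, and the genome build is not given in the sources used here. FPKM and gene lengths were deposited by the authors in 1 table. Of its 19814 named rows, 393 with another denominator (386 on the X chromosome) were left out. In the other 19421, value times length gave whole reads for 100% of values (tolerance 0.01 reads), which fixed each sample's assigned reads.

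Members and lists were chosen with earlier results of these data known. Members were matched by symbol, 4 list genes by NCBI gene ID, and 3 (SELENOS, SELENOK and SRPRA) were not analysed here. The rule for the text named all members, ARID1A and, in each other list, the 3 genes with the smallest p and all called genes where these were 5 or fewer. limma 3.58.1 (R 4.3.3; lmFit, eBayes with a mean-variance trend) was fitted to log2(FPKM + 1) for the 11599 genes averaging 1 FPKM or more, two-sided, with Benjamini-Hochberg adjustment over all of them and a threshold of 0.05. Fold changes on this scale understate changes of low genes. The fit was tested on simulated data without an effect shared by same-numbered samples. There its false calls exceeded the nominal share, more so with the block, and those of voom did not. Tables were made with Python 3.11.15 and pandas 2.3.3.

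Deviations from group means correlated across genes at 0.187 to 0.321 for same-numbered samples and at -0.302 to 0.0859 for other pairs, so the numbers were taken to pair the samples, by the data and not by the labels. No 2 replicates differed as little as counting noise (chi-square per degree of freedom 5.38 to 84.7). Promoter windows come from RefSeq; 4 members had none. Protein sequences were not used here. Alternatives were no filter or a minimum of 5 FPKM, a pseudocount of 0.1 or of 5 FPKM, equal FPKM sums, quantile normalization, the replicate block alone or with quantile normalization, voom (TMM factors) on recovered reads, and leaving out each sample. Whether counting used strand is not given, and reads of overlapping genes cannot be told apart.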

Additional observations from a re-analysis of the deposited data

How the results depend on the processing

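Members called higher numbered 1 in the reported fit, 7 with the replicate block, 4 with the replicate block and quantile normalization, and 6 with voom. Members called lower numbered 1 in the reported fit, 2 with either block fit and 0 without a filter. Leaving out samples gave 0 to 7 members higher and 0 to 7 lower, the upper ends without replicate 3 of both groups and without shARID1A replicate 3. The members' median log2 fold change was -0.07, and 0.015 with a minimum of 5 FPKM, where ERN1, EIF2AK3 and DNAJB9 drop out; leaving out samples it ranged from -0.10 to 0.016. Over all genes, 679 were higher and 1265 lower as reported. The higher count was 1316 with the replicate block and quantile normalization and 1048 with voom, and the lower count 820 with a minimum of 5 FPKM and 831 after quantile normalization. With 1 sample left out 231 to 1116 were higher and 356 to 2287 lower, and without replicate 3 of both groups 1223 were higher and 2552 lower. The split of calls by direction moved with the scaling. The cause was not tested.

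Signs turned only for members with small changes. On the log2 scale DERL2 had 0.091 after quantile normalization with or without the block and 0.0782 with voom, EIF2AK3 0.0767 after quantile normalization with or without the block, and HYOU1 0.0137 with voom. With 1 sample left out, HYOU1 ranged from -0.15 to 0.0287, DERL2 from -0.0866 to 0.0926, SEC61G from -0.337 to 0.0157, SSR1 from -0.257 to 0.00691, CANX from -0.102 to 0.118 and EDEM2 from -0.0323 to 0.114. Without replicate 3 of both groups DERL2 had 0.00869 and CANX -0.0991. ARID1A kept its call in every setting tried. Depth limits the low members most, with at least 243 reads behind a value.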
